A study of Saccharomyces cerevisiae with 11 samples.

Results

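The transcriptomes of *rna15-1* and *rna14-1* cells were compared directly, with 3 Affymetrix yeast arrays of each mutant, for all 5449 genes that a *Saccharomyces cerevisiae* probe set measures. They were chosen from 10928 probe sets by the platform's annotation, and the brightest probe set stood for a gene that has several. The 5 arrays of wild-type W303-1B cells served as a reference for the direction in which each mutant had moved. They also entered the fit, where they add to the estimate of the spread, and the mean intensity used as a filter. According to the labels, all strains are MATa haploids of this background that share the marker alleles *trp1-1*, *leu2-3*,*112*, *his3-11,15*, *ade2-1* and *ura3-1*, and the mutants, rna14-1 W and rna15-1 W, each carry 1 further allele. All cultures were in mid-log phase at 30°C, in a medium that the labels name YPAD and the methods YEPD. Each mutant is represented by a single strain, so that an effect of the allele cannot be told apart from any other difference between the strains. The samples are whole-cell RNA from 1 temperature. A changed transcript level therefore cannot be told apart from a changed share of cells that make it.

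Rna14 and Rna15 are subunits of cleavage factor I (CFI), which recognises the 3′ end of nascent pre-mRNAs and is needed for their cleavage and polyadenylation and for termination by RNA polymerase II. Rna15 binds the RNA, while Rna14 is a scaffold that ties Rna15 to the other subunits. Because the proteins act in a single complex, a direct comparison of the mutant strains asks which transcripts differ between cells that are deficient in the same factor. The transcripts of the mutated genes were at like levels in the mutants. *RNA14* gave log2 intensities of 10.90, 11.24 and 11.23 on the *rna14-1* arrays and of 10.63, 10.81 and 10.80 on the *rna15-1* arrays (difference -0.38 ± 0.10, log2 ± standard error, adjusted p = 0.0106). For *RNA15* the difference was -0.18 ± 0.09 (adjusted p = 0.134). Since both alleles are point mutations, these levels check no label.

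Differences are given throughout as *rna15-1* minus *rna14-1* on the log2 scale, so that 1 stands for a 2-fold difference, with the standard error of limma's moderated fit of all 11 arrays and its Benjamini-Hochberg adjusted p. "Higher" and "lower" in counts mean an adjusted p under 0.01. A gene is said to be called where it also differed by more than 2-fold, with a B-statistic (log odds of a difference) over 2 and a mean intensity over all arrays, A, above 7 on the log2 scale, which are the thresholds of the study's methods. "Rose" and "fell" refer to a mutant against wild type at an adjusted p under 0.01. The changes of both mutants against wild type share the same 5 control arrays and are therefore only set side by side.

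The *rna15-1* arrays did not form a tight group, and this touches every result below. Replicates 1 and 2 correlated at 0.997 across genes, but replicate 3 correlated with them at 0.964 to 0.965 and with the *rna14-1* arrays at 0.939 to 0.946, where replicates 1 and 2 reached 0.901 to 0.918. In *rna15-1*, 285 genes lay more than 2-fold from the mean of the other arrays on replicate 3, against 1 gene in *rna14-1*, whose arrays correlated at 0.993 to 0.997. The median intensity was between 10.34 and 10.40 on all 11 arrays and 98.7% to 99.7% of the genes exceeded the array background, so neither measure sets replicate 3 apart. Each list of genes was therefore also counted with each of the 6 mutant arrays left out in turn, an alternative added after the data were seen, and the lowest and highest of these 6 counts follow as "6 fits". List counts are to be read beside those over all 5449 genes. With all arrays 870 (16.0%) were higher and 900 (16.5%) lower. Without *rna15-1* replicate 3 these were 1322 (24.3%) and 1215 (22.3%), and without any other mutant array 534 to 631 and 582 to 668.

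The mating markers did not follow the MATa label. *MF(ALPHA)1*, which encodes the pheromone of α cells, gave 13.16 to 13.47 on the *rna14-1*, 14.05 to 14.11 on the *rna15-1* and 13.13 to 13.45 on the wild-type arrays. *MFA1*, which encodes the pheromone of **a** cells, gave only 7.27 to 7.82 in wild type, but 11.77 to 12.27 in *rna14-1* and 10.84 to 12.19 in *rna15-1*. All 4 α-specific genes were thus strongly expressed in every strain, and all 6 **a**-specific genes measured rose in both mutants. The α-specific genes were all higher in *rna15-1* than in *rna14-1*, by 2.15 ± 0.20 for *MF(ALPHA)2* (adjusted p = 1.57e-05), 1.45 ± 0.10 for the **a**-factor receptor gene *STE3*, 0.93 ± 0.15 for the agglutinin gene *SAG1* and 0.75 ± 0.11 for *MF(ALPHA)1*. Of the **a**-specific genes only *STE2*, the α-factor receptor gene, was past the threshold (1.11 ± 0.21, adjusted p = 0.00157). Without *rna15-1* replicate 3, *MFA1* was past it too, with -0.90 (adjusted p = 0.00522).

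Of the 5449 genes, 110 (2.02%) were called higher and 157 (2.88%) lower in *rna15-1* than in *rna14-1*. With the adjusted p as the sole criterion, 870 (16.0%) lay higher and 900 (16.5%) lay lower. Set against wild type, the called genes had mostly moved in *rna14-1*, in *rna15-1* or in both. Among the 110 called higher, 69 had fallen in *rna14-1* and 68 had risen in *rna15-1*, and the median change against wild type was -0.73 in *rna14-1* and 0.67 in *rna15-1*. Among the 157 called lower, 112 had risen in *rna14-1* (median change 1.22), while in *rna15-1* 33 had risen and 67 had fallen (median -0.28). Over all genes tested 32.8% rose and 29.5% fell in *rna14-1*, against 28.2% and 24.7% in *rna15-1*. The spread of differences was unequal too, with 37 genes called lower by more than 4-fold and 13 by more than 8-fold, against 19 and 5 genes called higher. Without *rna15-1* replicate 3 the counts increased to 219 called higher (4.02%) and 293 called lower (5.38%), and with the adjusted p as the sole criterion to 1322 (24.3%) and 1215 (22.3%). Of the genes called with all arrays, 98 of 110 and 148 of 157 were also called in the same direction without it. The median coding length was 1063 bases for genes called higher, 1584 for genes called lower and 1236 for all genes, and across the 5449 genes Spearman's rho between coding length and the difference was -0.14, a description only, since genes are not independent replicates.

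**Figure D1:**
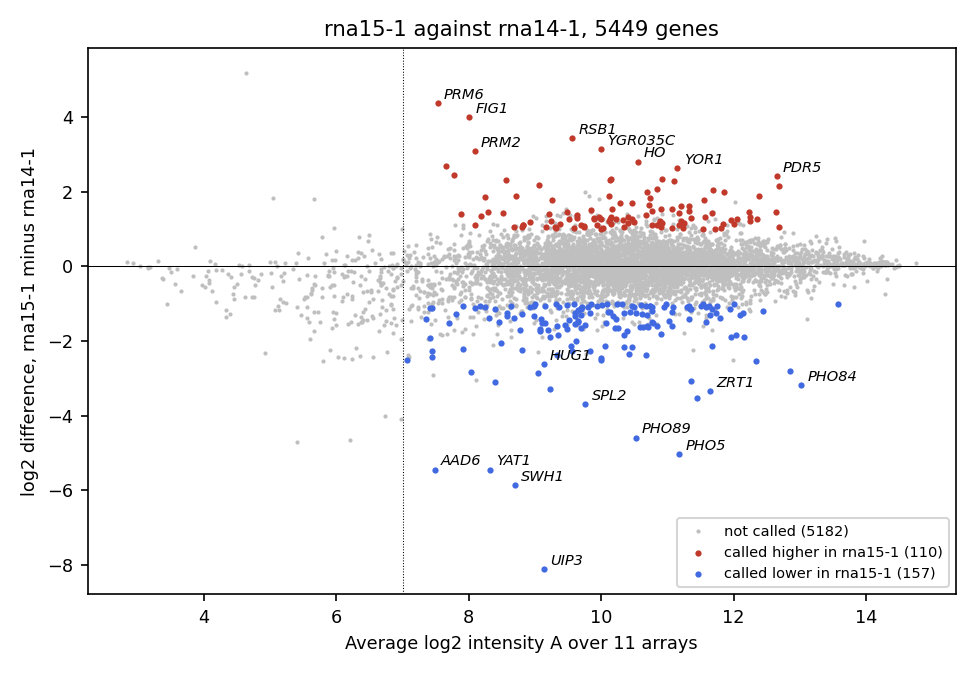
Difference between the mutants (log2, *rna15-1* minus *rna14-1*, vertical axis) against the average log2 intensity A over 11 arrays (horizontal axis), 1 point per gene, with the 110 genes called higher in red, the 157 called lower in blue and the dotted line at the threshold of 7 on A. The lower side reaches further, to -8.12 for *UIP3*, than the upper side, whose called genes end at 4.39 for *PRM6*.

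Genes that yeast induces on exposure to mating pheromone were the most prominent group on the higher side. They encode the membrane, cell wall and nuclear proteins with which mating partners adhere and fuse. *PRM6*, a pheromone-regulated membrane protein gene, gave 7.21, 7.62 and 7.38 on the *rna14-1* arrays and 11.55, 11.40 and 12.43 on the *rna15-1* arrays, and in wild type 4.47 to 5.94. The groups were far apart, and the difference of 4.39 ± 0.38 (adjusted p = 1.07e-05) was the largest among the genes called higher. *FIG1*, whose product acts in calcium influx and fusion during mating, gave 7.98, 8.38 and 8.29 in *rna14-1* and 12.01, 12.07 and 12.61 in *rna15-1*. Its difference was 4.01 ± 0.55 (adjusted p = 2.13e-04), but the call was lost when any of the 6 mutant arrays was left out (difference then 3.82 to 4.12). *PRM2*, which acts in nuclear fusion, was almost uniform within each strain, with 7.45 to 7.50 in *rna14-1* and 10.49 to 10.68 in *rna15-1* (3.09 ± 0.23, adjusted p = 4.00e-06). *AGA1*, the cell wall anchor of the **a**-agglutinin, was at 11.24, 11.53 and 11.46 in *rna14-1*, within reach of its wild-type range of 10.98 to 11.39, and at 13.39, 13.36 and 13.47 in *rna15-1* (2.00 ± 0.11, adjusted p = 6.24e-07). *KAR4*, a transcription factor for karyogamy genes, differed by 2.34 ± 0.16, and *PRM1*, a plasma membrane fusion protein gene, by 2.32 ± 0.23. The other called members were *PCL2*, *CIK1*, *FIG2*, *FUS1*, *FUS2*, *KAR5*, *PRM4* and *PRM8*, with differences from 1.09 for *PRM8* to 2.19 for *PCL2*.

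In all, 17 of 26 measured pheromone-induced genes were higher (16 to 19 in the 6 fits) and 0 lower, and 14 were called (12 to 14), with a median difference of 1.16 beside 0.01 over all genes tested. Against wild type, *rna14-1* had 11 of them risen and 5 fallen (median change 0.30), and *rna15-1* 18 risen and 2 fallen (median 1.45). *CIK1*, a kinesin-associated protein gene that is induced for karyogamy, departed from this order, because it gave 8.74 to 8.82 in *rna15-1* and 8.57 to 8.81 in wild type but 6.89 to 6.98 in *rna14-1* (1.85 ± 0.07, adjusted p = 3.98e-08). Members that did not differ past the threshold included *ASG7* (0.11 ± 0.28), *PRM5* (-0.13 ± 0.10), *PRM10* (0.01 ± 0.10) and *CHS7* (0.00 ± 0.08). Replicate 3 lay above replicates 1 and 2 of *rna15-1* for 21 of the 26 genes, by a median of 0.34, and without it 19 were higher, 1 was lower and the median difference was 1.03. The α-specific and **a**-specific genes moved as given above beside this group, and their part in it was not tested.

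Components of the pheromone signalling pathway differed less. Of 20 measured, 11 were higher (8 to 11 in the 6 fits), 1 was lower and 2 were called (median 0.39). In the 6 fits 0 or 1 was lower, and 1 or 2 were called, with 1 called without *rna14-1* replicate 1 or 3 or *rna15-1* replicate 3. *SST2*, the regulator that inactivates the pathway's G protein, gave 8.96, 9.43 and 9.29 in *rna14-1* and 10.81, 10.78 and 10.72 in *rna15-1*, with wild type between them at 10.24 to 10.53 (1.54 ± 0.12, adjusted p = 5.20e-06). The Gα subunit gene *GPA1* (1.01 ± 0.12) was the other called gene. *FAR1*, which arrests the cycle and orients growth in response to pheromone, was higher by 1.24 ± 0.19, and the mitogen-activated protein kinase gene *FUS3* by 0.64 ± 0.12. *STE11*, a kinase gene of the cascade, was the lower member (-0.44 ± 0.11, adjusted p = 0.00783). For *STE12*, the transcription factor at the end of the pathway, the difference was -0.59 ± 0.22 and did not pass the threshold (adjusted p = 0.0435).

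Targets of Pdr1 and Pdr3, the transcription factors that control drug efflux and membrane lipid composition, formed another group on the higher side. Several of them lay below wild type in *rna14-1* and at or above it in *rna15-1*. *RSB1*, a sphingoid base export gene, gave 8.07, 7.71 and 7.68 in *rna14-1*, 9.03 to 9.92 in wild type and 11.15, 11.37 and 11.27 in *rna15-1*. The difference was 3.45 ± 0.20 (adjusted p = 6.27e-07), made of a change of -1.76 in *rna14-1* and of 1.68 in *rna15-1*. *YGR035C*, a gene of unknown function, had the same order with 8.73, 8.41 and 8.60, 9.51 to 10.03, and 11.60, 11.93 and 11.61 (3.14 ± 0.14, adjusted p = 9.30e-08). *GRE2*, a reductase gene, gave 8.88, 9.15 and 9.05 in *rna14-1*, 9.80 to 10.30 in wild type and 11.43, 11.46 and 11.19 in *rna15-1* (2.34 ± 0.13). The mutant arrays did not overlap for any of these 3 genes, but this was a condition of their choice. Over all genes, 29.5% had every *rna15-1* array above every *rna14-1* array.

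The ABC transporter genes of the list differed mainly through *rna14-1*. *PDR5*, the main multidrug efflux pump gene, gave 11.09, 11.15 and 10.90 in *rna14-1*, 13.50, 13.44 and 13.46 in *rna15-1* and 13.01 to 13.23 in wild type (2.42 ± 0.08, adjusted p = 1.34e-08). *YOR1*, an oligomycin efflux pump gene, gave 9.37, 9.51 and 9.33 in *rna14-1*, 12.03, 12.09 and 11.98 in *rna15-1* and 11.10 to 11.94 in wild type (2.63 ± 0.18). Both transporters thus stood lower in *rna14-1* by more than 2 on the log2 scale against wild type and near wild type in *rna15-1* (0.34 and 0.37). *SNQ2*, a pump gene for other drugs, was below wild type in both mutants and less so in *rna15-1* (0.89 ± 0.17, adjusted p = 0.0017). In contrast, *PDR15* (-0.14 ± 0.16) and *PDR10* (-0.49 ± 0.22) did not pass the threshold. *ICT1*, an acyltransferase gene, was at 10.31, 10.42 and 10.38 in *rna14-1*, close to its wild-type range of 10.50 to 10.76, and at 12.75, 12.65 and 12.60 in *rna15-1* (2.30 ± 0.08, adjusted p = 1.55e-08). *PDR16*, a lipid transfer protein gene, was called too (1.49 ± 0.10), as was *YPL088W* (1.28 ± 0.08). Of 20 measured targets 12 were higher, 1 was lower and 8 were called, with a median of 0.88, and 12 were higher and 8 called in each of the 6 fits. Without *rna15-1* replicate 3, 2 were lower and the median was 0.92. The transcript of *PDR3* itself was higher by 0.86 ± 0.10, whereas that of *PDR1* gave -0.26 ± 0.10 (adjusted p = 0.0458). Of these targets 4 rose and 10 fell against wild type in *rna14-1*, where *rna15-1* had 10 risen and 4 fallen.

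**Figure D2:**
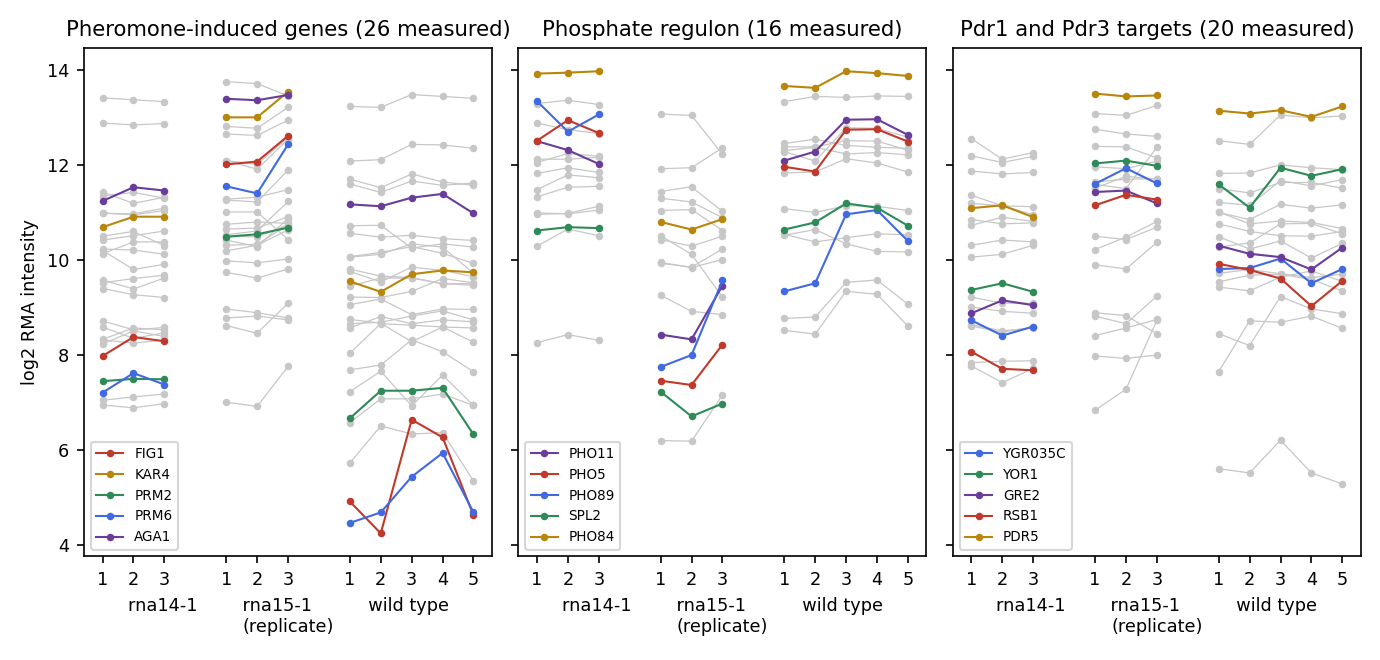
Log2 intensity of every measured member of 3 gene lists on each array (horizontal axis: replicates of *rna14-1*, *rna15-1* and wild type), with a line joining the arrays of a strain for each gene, 5 genes of each list in colour and the rest in grey. The coloured pheromone-induced and Pdr genes lie higher on all 3 *rna15-1* arrays than on the *rna14-1* arrays and the coloured phosphate genes lower, and *rna15-1* replicate 3 stands above replicates 1 and 2 for *PRM6* (12.43) and *PHO89* (9.57).

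Further genes with large increases belonged to neither group. *HO*, the endonuclease gene of mating type switching, gave 8.85, 8.63 and 8.51 in *rna14-1*, 11.89, 11.75 and 10.78 in *rna15-1* and 11.07 to 11.26 in wild type (2.81 ± 0.23, adjusted p = 8.13e-06), so that it was low in *rna14-1*. *IMA5*, an isomaltase gene, gave 6.97, 7.09 and 7.26 in *rna14-1*, as in wild type (6.85 to 7.32), and 9.22, 9.51 and 9.99 in *rna15-1* (2.46 ± 0.18). *MIG2*, a repressor gene of the glucose response, was at 9.98, 10.37 and 10.20 in *rna14-1*, 10.04 to 10.58 in wild type and 12.00, 12.04 and 12.04 in *rna15-1* (1.84 ± 0.16, adjusted p = 9.62e-06). The low-affinity and intermediate hexose transporter genes *HXT3* (0.73 ± 0.08) and *HXT4* (1.10 ± 0.21) were higher as well, whereas *HXT5* (-1.89 ± 0.43), *HXT10* (-1.95 ± 0.36), *HXT1* (-1.27 ± 0.29) and *HXT2* (-0.63 ± 0.16) were lower. Of the 22 hexose transporter and sensor genes measured, 3 were higher and 4 lower, shares near the 16.0% and 16.5% of all genes. Those 4 were 5 without *rna15-1* replicate 3 and 1 without any other mutant array.

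The *YBR013C* gene, of unknown function, was not called because its average intensity A was 4.64, and it was picked after its values were seen. It gave 3.17, 3.22 and 3.12 in *rna14-1* and 3.15 to 3.48 in wild type, not above background, and 8.06, 8.30 and 8.72 in *rna15-1*. The level in *rna15-1* was at least 17.8-fold higher, against the background of the *rna14-1* arrays (adjusted p = 3.58e-09).

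The phosphate regulon was the most uniform group on the lower side. These genes, which yeast induces through Pho4 when phosphate is scarce, encode secreted acid phosphatases, phosphate transporters and the vacuolar polyphosphate polymerase. *PHO5*, the main acid phosphatase gene, gave 12.51, 12.94 and 12.67 in *rna14-1*, 11.86 to 12.75 in wild type and 7.46, 7.37 and 8.22 in *rna15-1*. The *rna15-1* arrays lay far below both other strains, and the difference from *rna14-1* was -5.03 ± 0.29 (adjusted p = 6.24e-07). *PHO84*, the high-affinity phosphate transporter gene, was steady within each strain at 13.92 to 13.97 in *rna14-1* and 10.64 to 10.86 in *rna15-1*, and at 13.62 to 13.97 in wild type (-3.18 ± 0.10, adjusted p = 9.44e-09). *SPL2*, a regulator of phosphate transport, gave 10.62, 10.69 and 10.67 in *rna14-1* and 7.23, 6.71 and 6.98 in *rna15-1* (-3.69 ± 0.16). *PHO89*, the sodium-coupled phosphate transporter gene, behaved unlike these in that it stood above its wild-type range of 9.34 to 11.05 in *rna14-1*, at 13.34, 12.70 and 13.06, and below or within it in *rna15-1*, at 7.75, 8.00 and 9.57 (-4.59 ± 0.54, adjusted p = 9.11e-05). Without *rna14-1* replicate 1 the value for *PHO89* was -4.44 and the call was lost.

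Of 16 measured members, 0 were higher, 13 were lower (12 to 15 in the 6 fits) and 10 were called (9 or 10), with a median of -1.44. Set against wild type, 3 of them had risen and 1 had fallen in *rna14-1* (median -0.07), where *rna15-1* had 0 risen and 12 fallen (median -1.33). The polyphosphate polymerase subunit genes *VTC3* (-2.13 ± 0.10) and *VTC4* (-1.02 ± 0.11) were called, *VTC2* was lower by less than 2-fold (-0.76 ± 0.12), and *VTC1* gave -0.53 ± 0.18 (adjusted p = 0.0316). *GIT1*, which encodes a glycerophosphoinositol transporter, and *GDE1*, a glycerophosphocholine phosphodiesterase gene, were lower by 2.01 ± 0.22 and 1.06 ± 0.09 although neither lay far from wild type in *rna15-1* (-0.14 and -0.08), since they had risen in *rna14-1*. *PHO11*, another acid phosphatase gene, showed -3.54 ± 0.31, but its probe set is marked as shared with other sequences and its value may include a relative. Without replicate 3, 15 of the 16 were lower and the median was -1.52. Of 7 regulators of the pathway counted in a list of their own, 0 were higher and 2 lower, with a median of -0.08.

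Among the genes of metal uptake 1 zinc gene stood out. *ZRT1*, the high-affinity zinc transporter gene, gave 12.81, 12.81 and 12.76 in *rna14-1* and 9.14, 9.23 and 9.97 in *rna15-1* (-3.34 ± 0.22, adjusted p = 1.81e-06). Its activator gene *ZAP1* was lower by 0.80 ± 0.18 and the transporter genes *FET4* and *ZRT2* by 0.54 ± 0.11 and 0.37 ± 0.07. In all, 4 of 16 zinc-responsive genes were lower and 0 higher, beside 16.5% and 16.0% of all genes. Without *rna14-1* replicate 3 or *rna15-1* replicate 1, 2 were lower, where fewer of all genes were too (582 and 607, against 900 with all arrays). In the copper list 4 of 11 were lower (3 to 5 in the 6 fits), beside the same 16.5%, and 0 were higher. None was called, and the lower ones included the copper transporter gene *CTR1* (-0.85 ± 0.15). Of 28 iron regulon genes 1 was higher, the heme oxygenase gene *HMX1* (0.66 ± 0.12), and 4 were lower, of which the ferric reductase gene *FRE3* was called (-1.32 ± 0.14). The number of iron regulon genes lower was 10 without *rna15-1* replicate 3 and 2 without any other mutant array. With all arrays, the 4 of 28 iron regulon genes that were lower are close to the 16.5% found over all genes.

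Several of the genes with the largest decreases were neighbours on their chromosomes. *UIP3*, a membrane protein gene on chromosome I, gave 11.26, 11.17 and 11.07 in *rna14-1*, 11.46 to 11.68 in wild type and 3.03, 2.96 and 3.14 in *rna15-1*, where no array was above background. Its level was at least 116-fold lower in *rna15-1*. *YAT1*, the outer carnitine acetyltransferase gene, was at least 34.9-fold lower, with 9.42, 9.38 and 9.49 in *rna14-1* against 4.25, 4.16 and 3.53. *SWH1*, an oxysterol-binding protein gene, gave 10.20, 10.04 and 10.22 in *rna14-1* and 4.24, 4.37 and 4.27 in *rna15-1*, and 2 of its 3 *rna15-1* values were above background (-5.86). *PRM9*, which lies next to *UIP3* among the measured genes, was at least 9.54-fold lower, and *FLO1*, a flocculin gene next to *SWH1*, at least 12.3-fold lower, neither of them called because A was under 7. *MST28*, a vesicle formation gene within this stretch, did not share the low values, with 9.74, 9.74 and 11.24 in *rna15-1* and 10.26 to 10.57 in *rna14-1*, but its probe set is marked as shared with other sequences.

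The left end of chromosome VI held a similar run of 3 measured genes, picked after their values were seen. *AAD6*, a putative aryl-alcohol dehydrogenase gene, gave 9.95, 9.64 and 9.99 in *rna14-1*, 7.81 to 8.06 in wild type and 4.27, 4.13 and 4.81 in *rna15-1*, of which 1 value was above background (-5.45 ± 0.16, adjusted p = 3.60e-09). Its neighbour *AGP3*, an amino acid permease gene, was at 7.97, 7.85 and 7.97 in *rna14-1* and not above background in *rna15-1*, at least 12.3-fold lower. *DAK2*, a dihydroxyacetone kinase gene, followed with 8.38, 8.62 and 8.36 in *rna14-1* and 4.49, 4.48 and 4.12 in *rna15-1* (-4.09). Neither *AGP3* nor *DAK2* was called, since A was 6.21 and 6.97. On the centromere side the next measured gene, *ZNF1*, a regulator of respiratory carbon use, was lower by 2.31, with intensities of at most 6.25 on any array of either mutant. On the telomere side *SNZ3*, a gene of vitamin B6 synthesis, gave -0.63 from a probe set with shared sequence and did not pass the threshold.

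Most stress-induced genes were above wild type in both mutants, and between the mutants more of them were lower than higher in *rna15-1*. Of 32 genes of the type controlled by Msn2 and Msn4, 29 exceeded wild type in *rna14-1* and 19 did so in *rna15-1* at the adjusted p, and 0 fell in either. In the direct comparison 14 were lower and 2 higher, with a median of -0.76, but only 2 were called lower. *SSA3*, a heat shock protein gene, gave 11.56, 11.47 and 11.51 in *rna14-1* and 9.10, 9.04 and 10.01 in *rna15-1*, the latter around the wild-type range of 9.46 to 9.81 (-2.13 ± 0.21, adjusted p = 2.87e-05). *XBP1*, a stress-induced repressor gene, fell short of its *rna14-1* level of 11.43 to 11.84 with 9.71, 9.24 and 10.27 in *rna15-1*, while wild type was at 7.10 to 7.78 (-1.89 ± 0.24). The position of this group depended on the array. *HSP26*, a small heat shock protein gene, was at 11.70 and 11.98 on *rna15-1* replicates 1 and 2 but at 13.60 on replicate 3, where *rna14-1* gave 12.91 to 13.08. Replicate 3 was above the other arrays for 30 of the 32 genes, by a median of 0.80, and without it 23 were lower, 11 of them called, with a median of -1.13. Without *rna14-1* replicate 3, *rna15-1* replicate 1 or *rna15-1* replicate 2, 8 were lower, and without *rna14-1* replicate 2, 9 were lower, of which 1 or 2 were called, and without *rna14-1* replicate 1 1 was called.

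Of 21 trehalose and glycogen genes, *rna14-1* had 15 above wild type and 1 below it at the adjusted p, whereas *rna15-1* had 4 above and 3 below. Between the mutants 10 were lower and 1 was higher (median -0.70), with none called. These counts depended on the array. Without *rna15-1* replicate 3, 12 were lower and 4 of them called, where 22.3% of all genes were lower. The median there was -0.72, close to that with all arrays. Without *rna14-1* replicate 1, 1 was called. Without *rna14-1* replicate 3 or *rna15-1* replicate 1 or 2, 5 were lower. Fewer of all genes were lower in these fits too (582, 607 and 599, against 900 with all arrays). The glycogen synthase genes *GSY1* and *GSY2* gave -1.68 ± 0.37 and -1.60 ± 0.27, and *ATH1*, the acid trehalase gene, -0.97 ± 0.16, all past the threshold and all within 0.5 of wild type in *rna15-1*, whereas the trehalose-phosphate synthase gene *TPS1* gave -0.27 ± 0.18. *PGM1*, a phosphoglucomutase gene, was the member that was higher (0.84 ± 0.13). Among 38 autophagy genes 14 were lower and 3 higher (median -0.45). The count of lower genes was 15 without *rna15-1* replicate 3, with a median of -0.46. It was 8 without *rna14-1* replicate 3 and 9 without *rna14-1* replicate 1 or *rna15-1* replicate 1 or 2. In those 8 and 9 cases fewer of all genes passed the threshold too. The mitophagy receptor gene *ATG32* (-1.32 ± 0.17) and *ATG7* (-1.13 ± 0.14), which encodes the activating enzyme of the conjugation systems, were called. There were 7 autophagy genes called lower without *rna15-1* replicate 3, 3 without *rna14-1* replicate 1, 1 without *rna14-1* replicate 2, and none without *rna14-1* replicate 3 or *rna15-1* replicate 1 or 2. The receptor gene for autophagy of the endoplasmic reticulum, *ATG40*, ran the other way with 10.28 to 10.39 in *rna14-1* and 11.34, 11.22 and 12.18 in *rna15-1* (1.26 ± 0.24, adjusted p = 0.00174).

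Genes of sporulation and meiosis, which are normally silent in growing haploids, were raised above wild type in 39 of 51 cases in *rna14-1* and in 28 in *rna15-1*. Between the mutants 15 were lower in *rna15-1* and 0 higher (median -0.74), and 3 were called. Over all genes 16.5% were lower and 2.88% called lower. Leaving out *rna15-1* replicate 3 gave 26 lower and 8 called, where 22.3% of all genes were lower and 5.38% called lower. Without *rna14-1* replicate 1 or *rna15-1* replicate 2, 9 were lower, where fewer of all genes were too. *SPO74*, a gene for a part of the meiotic spindle pole body, stood at 7.82, 7.50 and 7.62 in *rna14-1* but at 4.60, 4.88 and 5.79 in *rna15-1*, within or near the wild-type range of 4.58 to 5.61 (-2.55 ± 0.32, adjusted p = 1.30e-04). *SPO11*, which encodes the nuclease that begins meiotic recombination, was above wild type in both mutants, by 4.66 in *rna14-1* and 2.90 in *rna15-1* (difference -1.76 ± 0.43). The called members were the kinase gene *IME2* (-1.25 ± 0.14), the synaptonemal complex gene *ZIP1* (-1.11 ± 0.11) and *SPS19* (-1.42 ± 0.11), which encodes a peroxisomal reductase. Genes repressed by good nitrogen sources gave 10 lower (7 to 12 in the 6 fits) and 3 higher of 30 (median -0.46). The 3 higher were 5 without *rna15-1* replicate 3, 1 without *rna14-1* replicate 2 and 0 without any other mutant array. *PUT1*, the proline oxidase gene, was at 13.89 and 13.95 on replicates 2 and 3 of *rna14-1*, higher still on its replicate 1, and at 10.45, 11.05 and 12.78 in *rna15-1*, where wild type was at 10.98 to 11.39 (-2.51 ± 0.44, adjusted p = 0.00105), and it was called only without replicate 3. *CAR2*, an arginine catabolism gene (-1.59 ± 0.15), and the regulator gene *GAT1* (-1.40 ± 0.14) were called, and 5 genes of the list were called without *rna15-1* replicate 3.

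Amino acid synthesis genes differed in small steps, mostly to the higher side. Of 59 measured, 26 were higher and 3 lower (median 0.32), 1 of them called. Fewer were higher without *rna14-1* replicate 1 (16), *rna14-1* replicate 3 (14), *rna15-1* replicate 1 (15) or *rna15-1* replicate 2 (14), where fewer of all genes passed the threshold too (534 higher without *rna14-1* replicate 3). The called gene was *HIS4*, a histidine synthesis gene on chromosome III, at 11.91, 12.21 and 12.19 in *rna14-1*, near wild type (11.82 to 11.98), and at 13.40, 13.40 and 13.30 in *rna15-1* (1.26 ± 0.09, adjusted p = 2.47e-06). The lysine synthesis gene *LYS12* differed by 0.80 ± 0.08 and the arginine synthesis gene *ARG1* by 0.89 ± 0.13. The 3 lower members were *GDH3* (-0.97 ± 0.20), *BAT2* (-0.55 ± 0.14) and *LEU4* (-0.43 ± 0.09). Without *rna15-1* replicate 3 the counts were 29 and 3, and without *rna14-1* replicate 2 or 3 none was lower. Of 42 respiratory chain and ATP synthase genes 10 were higher and 3 lower, beside 16.0% and 16.5% of all genes. Without *rna15-1* replicate 3, 15 were higher, where 24.3% of all genes were. Without *rna14-1* replicate 1 or 3 or *rna15-1* replicate 1 or 2, 6 were higher, where fewer of all genes were too. Of the 10, 7 were ATP synthase subunit genes, with differences from 0.40 for *TIM11* to 0.85 for *ATP18*. Cytosolic ribosomal protein genes gave 7 higher and 2 lower of 128, smaller shares than the 16.0% and 16.5% of all genes, with a median of 0.08. Without *rna15-1* replicate 3, 25 of the 128 were higher, again a smaller share than the 24.3% of all genes. Without any other mutant array 2 to 4 were higher.

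Most genes for the separation of daughter cells were below wild type in both mutants. Of 14 daughter-cell separation genes, some of which encode glucanases and related wall enzymes, 12 fell in *rna14-1* and 10 in *rna15-1*. Directly compared, 7 were higher (7 or 8 in the 6 fits) and 1 lower (median 0.73), and *SCW11* (1.02 ± 0.11) and *AMN1* (1.02 ± 0.09) were called. Only 1 gene of the list was called without *rna14-1* replicate 2 or 3 or *rna15-1* replicate 2 or 3. *DSE4*, a glucanase gene, gave 9.18, 8.69 and 8.34 in *rna14-1* and 9.69, 9.82 and 9.50 in *rna15-1*, both far below the wild-type range of 11.87 to 12.22 (0.94 ± 0.18, adjusted p = 0.00168). The G1 cyclin gene *CLN2* was at 9.93, 10.12 and 9.89 in *rna14-1* and at 11.87, 11.68 and 10.49 in *rna15-1*, with replicate 3 between the other *rna15-1* arrays and *rna14-1* (1.37 ± 0.29, adjusted p = 0.0033). *CLN1* differed by 1.24 ± 0.19 and the mitotic cyclin gene *CLB2* by 0.96 ± 0.21, while *CLB1* was lower by 0.99 ± 0.17 and the inhibitor gene *SIC1* by 0.63 ± 0.09. Against wild type, *CLN2* and *CLN1* fell in *rna14-1* (-1.62 and -1.44) and did not pass the threshold in *rna15-1* (-0.26 and -0.20). Among 20 cyclins and inhibitors 5 were higher and 2 lower, where 16.0% and 16.5% of all genes were. Without *rna15-1* replicate 3, 12 were higher and 3 lower, beside 24.3% and 22.3% of all genes. Without the other mutant arrays in turn 3 or 4 were higher, where fewer of all genes were higher too. Histone genes gave 3 higher (3 or 4 in the 6 fits) and 0 lower of 10.

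Damage-induced genes were of interest because the study concerns genome instability in CFI mutants. *HUG1*, which encodes an inhibitor of ribonucleotide reductase and is induced by DNA damage and replication arrest, gave 10.31, 10.26 and 10.42 in *rna14-1* and 7.33, 7.40 and 8.38 in *rna15-1* (-2.63 ± 0.23, adjusted p = 1.04e-05). Against wild type it rose by 1.05 in *rna14-1* and fell by 1.58 in *rna15-1*. The photolyase gene *PHR1* was lower by 1.82 ± 0.38, the nucleotide excision repair gene *RAD2* by 1.03 ± 0.14, the recombination gene *RAD54* by 0.75 ± 0.11 and the checkpoint kinase gene *DUN1* by 0.55 ± 0.09. The ribonucleotide reductase gene *RNR1* on chromosome V was higher, and its *rna15-1* values were uneven at 12.49, 12.58 and 10.95, where *rna14-1* gave 10.49 to 10.61 (1.46 ± 0.35, adjusted p = 0.00571). Wild type was at 11.97 to 12.49, so that *RNR1* fell by 1.65 in *rna14-1* and did not rise in *rna15-1* (-0.19, adjusted p = 0.610). In all, 8 of 21 such genes were lower (6 to 10 in the 6 fits), beside 16.5% of all genes. Of these, 2 were called (1 to 3 in the 6 fits), beside 2.88% of all genes called lower. In the fit without *rna15-1* replicate 3, 10 were lower, where 22.3% of all genes were. The number higher was 1, beside 16.0% of all genes, and it was 3 without *rna15-1* replicate 3 and 0 without any other mutant array.

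Among the genes of the 3′-end processing machinery itself, of 28 measured 2 were higher, 4 were lower and 22 did not pass the threshold (median -0.03), beside 16.0% and 16.5% of all genes. In the 6 fits 2 to 5 were higher, with 5 without *rna15-1* replicate 3, and 3 to 5 lower. *CFT1*, which encodes the largest subunit of the cleavage and polyadenylation factor, gave 8.93, 8.73 and 9.05 in *rna14-1* and 9.89, 9.98 and 9.96 in *rna15-1*, the latter within the wild-type range of 9.63 to 9.95 or just above it (1.04 ± 0.11, adjusted p = 4.04e-05). *SYC1*, a small subunit gene of the same factor, gave 8.23, 7.99 and 7.99 in *rna14-1* and 9.50, 9.42 and 8.97 in *rna15-1* (1.23 ± 0.13). Both were called, beside 2.02% of all genes called higher, and 1 gene of the list was called higher without *rna14-1* replicate 2. *HRP1*, the RNA-binding partner of CFI, was lower by 0.85 ± 0.15, the termination factor gene *NRD1* by 0.83 ± 0.15, the CFI subunit gene *PCF11* by 0.42 ± 0.07 and the poly(A) polymerase gene *PAP1* by 0.38 ± 0.09.

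**Figure D3:**
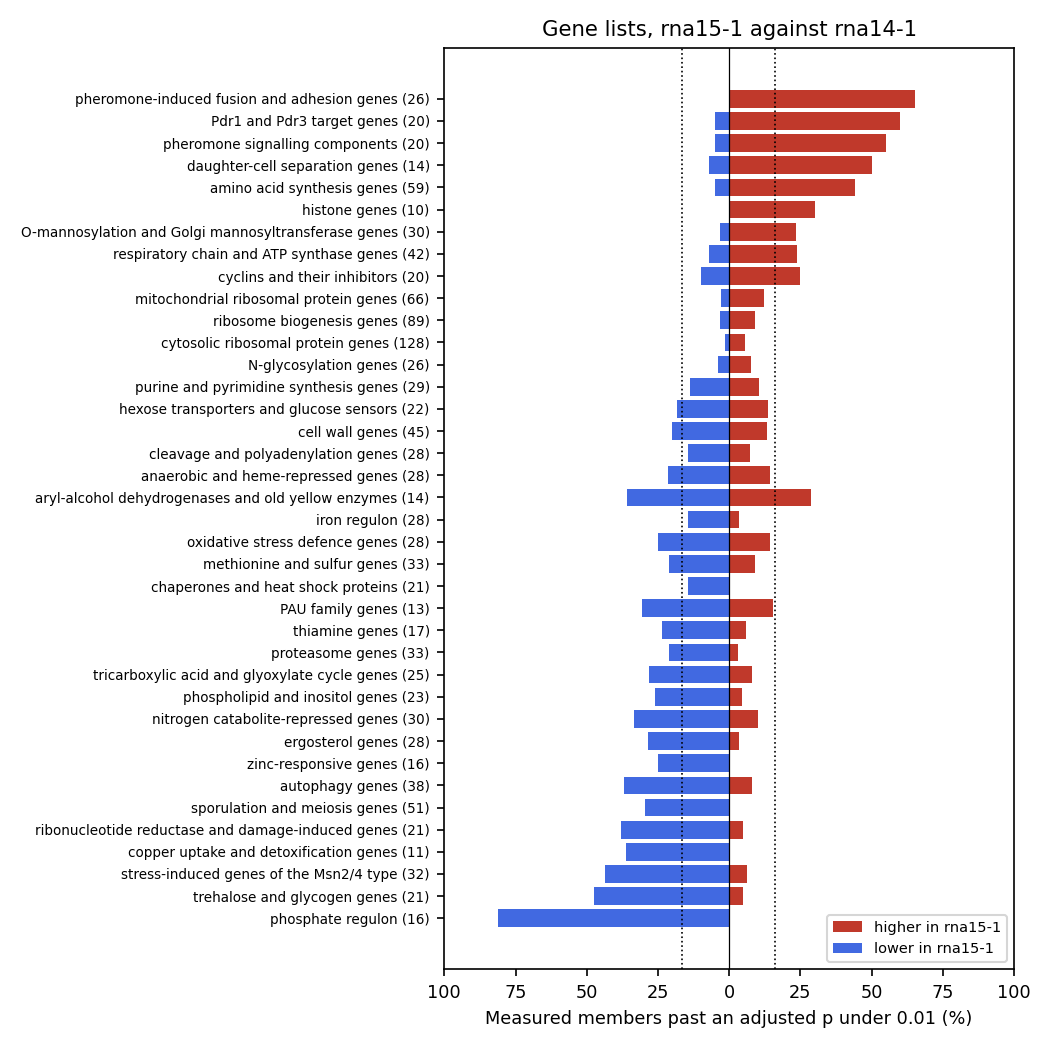
Share of the measured members of each gene list of 10 or more genes that were higher (red, to the right) or lower (blue, to the left) in *rna15-1* than in *rna14-1* at an adjusted p under 0.01, in percent, with the number measured in parentheses and dotted lines at the shares over all genes tested (16.0% and 16.5%). The pheromone-induced genes (17 of 26 higher) and the phosphate regulon (13 of 16 lower) stand at the ends.

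Single genes of metabolism completed the lower side. *INO1*, the inositol-phosphate synthase gene, was at 11.17, 11.43 and 11.58 in *rna14-1* and at 8.69, 8.89 and 9.56 in *rna15-1*, around its wild-type values of 8.42 to 9.91 (-2.35 ± 0.37), and was not called. *THI20*, a thiamine synthesis gene, gave 12.42, 12.54 and 12.56 in *rna14-1* and 10.61, 10.39 and 11.13 in *rna15-1* (-1.80 ± 0.15, adjusted p = 9.75e-06). *JLP1*, a sulfonate dioxygenase gene, was raised to 10.95, 10.72 and 11.15 in *rna14-1* and gave 7.74, 7.37 and 8.42 in *rna15-1* (-3.09 ± 0.35). *FDH1*, the formate dehydrogenase gene, and *ULI1* differed by -2.83 ± 0.28 and -2.85 ± 0.18. *YBR284W*, a gene of unknown function, gave 12.82, 11.99 and 12.37 in *rna14-1*, 7.10 to 7.58 in wild type and 8.40, 8.40 and 10.54 in *rna15-1*, so that replicate 3 lay between the other *rna15-1* arrays and *rna14-1* (-3.28 ± 0.47, adjusted p = 3.20e-04). *HPF1*, a cell wall mannoprotein gene, had the same kind of spread, with 9.13, 9.72 and 11.20 in *rna15-1* against 12.80 to 13.53 in *rna14-1* (-3.08 ± 0.42).

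When the genes were grouped by chromosome, chromosome V stood apart, and its shift was uneven among the *rna15-1* arrays. Over its 259 genes the median difference from the mean of *rna14-1* was 0.67 on replicate 1 and 0.68 on replicate 2 but 0.04 on replicate 3, with 222, 211 and 136 genes above 0. Against the mean of wild type the medians were 0.72, 0.67 and 0.04, while the *rna14-1* arrays gave -0.02 to 0.04 and the wild-type arrays -0.02 to 0.03. The running median stayed above 0 on replicates 1 and 2 over nearly the whole chromosome and moved about 0 on replicate 3. With all arrays the median over the chromosome was 0.43, and 6 genes were called higher and 5 lower. Without replicate 3 the median was 0.68, and 64 were called higher and 4 lower, of the 219 and 293 in all. Genes of the chromosome with large differences show the split. *EMP65*, a gene for an endoplasmic reticulum protein, gave 10.69, 10.78 and 9.40, where the mean of *rna14-1* was 8.40 (1.89, adjusted p = 8.85e-04). *THO1* gave 10.58, 10.62 and 8.89 with a mean of 8.56 in *rna14-1*. *BIM1*, a microtubule plus-end protein gene, was higher on all arrays, at 11.74, 11.69 and 10.61 against a mean of 9.65 in *rna14-1* (1.70, adjusted p = 2.89e-04). Members of any list that lie on chromosome V can carry this shift on replicates 1 and 2. Its part in single genes such as *RNR1* was not tested.

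**Figure D4:**
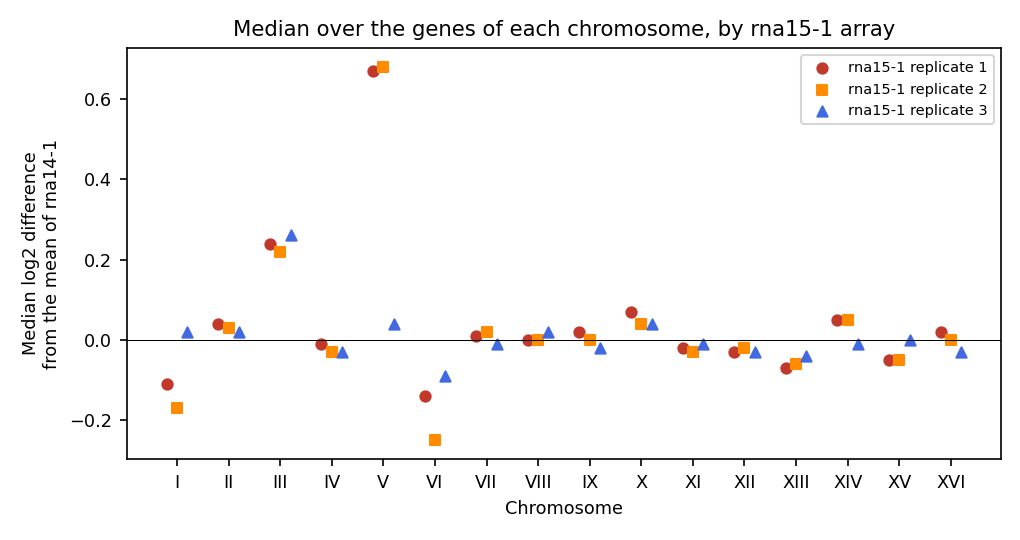
Median log2 difference of each *rna15-1* array from the mean of the *rna14-1* arrays over the genes of each chromosome (horizontal axis), 1 point per array. On chromosome V replicates 1 and 2 lie at 0.67 and 0.68 and replicate 3 at 0.04, while on chromosome III the 3 arrays lie together at 0.22 to 0.26.

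On chromosome III, by contrast, the 3 *rna15-1* arrays agreed. Over its 148 genes the median was 0.24, with 0.24, 0.22 and 0.26 on the replicates. The difference was concentrated in 37 neighbouring measured genes of the left arm from *VAC17* to *KCC4*, a stretch chosen after the values were seen, which therefore carries no test of its own. Their median difference was 0.83, with 0.82, 0.85 and 0.94 on the replicates, and 34 of the 37 were above 0. Of these genes 29 were higher, 0 were lower and 13 were called. The remaining 111 genes of the chromosome had a median of 0.10. Against wild type the stretch had a median of 0.26 in *rna14-1* and 1.23 in *rna15-1*. Besides *KAR4*, *FUS1* and *HIS4* it holds *MIC10*, a gene for the mitochondrial inner membrane organising system, at 13.38, 13.30 and 13.02 against a mean of 11.34 in *rna14-1* (1.89, adjusted p = 8.62e-07). It also holds *VAC17*, the vacuole inheritance receptor gene, at 11.41, 11.39 and 10.98 against 9.42, 9.40 and 9.30 (1.89 ± 0.20), and the prion gene *RNQ1* at 11.83, 11.71 and 11.32 against 10.06, 10.01 and 10.15 (1.55 ± 0.12). *PDI1*, the protein disulfide isomerase gene within the stretch, did not differ past the threshold (-0.05, adjusted p = 0.571). The other end of the chromosome went the other way, where *GIT1*, *YCR099C*, *YCR101C* and *YCR102C*, 4 neighbours among the measured genes, had a median of -1.55.

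**Figure D5:**
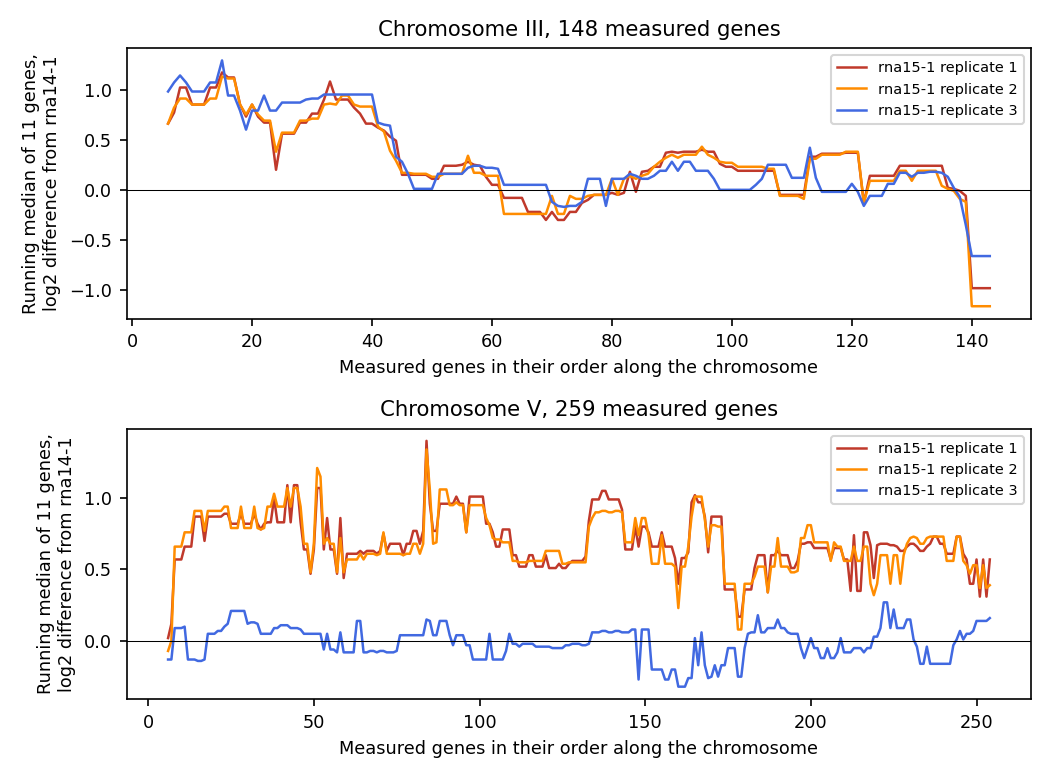
Running median over 11 neighbouring measured genes of the log2 difference of each *rna15-1* array from the mean of the *rna14-1* arrays (vertical axis), along chromosome III (148 genes) and chromosome V (259 genes) in gene order (horizontal axis). The 3 arrays run together over the raised left arm of chromosome III (median 0.83 from *VAC17* to *KCC4*), whereas along chromosome V replicate 3 runs about 0 and the others above it.

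Chromosome VI showed a small shift to the lower side, with a median of -0.18 over 117 genes and of -0.14, -0.25 and -0.09 on the replicates. Against wild type its medians were 0.29, 0.36 and 0.33 on the *rna14-1* arrays and 0.16, 0.14 and 0.18 on the *rna15-1* arrays, so that it was above wild type in both mutants. The medians of the remaining chromosomes lay between -0.09 and 0.05. When the genes of chromosome V and of the raised stretch of chromosome III were left out of the counts, an alternative added after the data were seen, 91 genes called higher and 152 called lower were left.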

How the data were processed

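The authors used GCOS, RMA (robust multiarray average) and limma, per the methods and the submitters' processing notes, where no versions are stated. The deposited values are log2 intensities after RMA normalisation, and no further normalisation was applied. Strain and replicate came from the labels, which call the arrays biological replicates and name no separate cultures, so that p-values measure the spread between these samples. Of 10928 probe sets, 5498 have a gene in the *S. cerevisiae* R64 gene table, and the brightest of each gene was tested. Of the 5449 genes, 47 had several probe sets and 114 have a suffix that marks shared sequence. The 1746 named probe sets of other genes gave each array's background, their 95th percentile, 4.19 to 4.44. A gene not above it on any array of a group has only a bound, in which each dim array counts with its background or its signal, whichever is larger. The gene table served for names, gene order and coding length, and no coordinates are given.

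The fit used limma 3.58.1 (lmFit and eBayes, R 4.3.3), with all 11 arrays and a coefficient for each strain. The number of arrays limits the precision. Named genes are the 15 largest increases and 15 largest decreases among calls whose arrays did not overlap and whose probe sets were not shared, the genes called oppositely against wild type, *RNA14*, *RNA15*, the mating markers, and per list up to 5 members with the largest difference. The text gives a part of these and adds list members for context. The members and the 42 lists were chosen with earlier results of these data known, and some lists overlap gene lists that the study drew from these arrays, so list counts are descriptions. The alternatives changed the arrays in the fit, the normalisation, the filters, the thresholds, the probe sets, the variance model and the replicate block, and left out each array in turn. In simulated data for this comparison with 5449 genes, 0 of 50 genes changed by 0.5 on the log2 scale were called, 45 of 50 by 1.5, 49 of 50 by 2 and 50 of 50 by 3, and 0 unchanged genes. Plots were made in Python 3.11.15 with matplotlib 3.10.9.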

Additional observations from a re-analysis of the deposited data

Results flagged for a closer look

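Only 4 genes were called in opposite directions in the mutants against wild type, and they are singled out for that. Opposite calls of over 2-fold each already imply a difference of over 2-fold between the mutants. These 4 genes were *RSB1* (difference 3.45), *YGR035C* (3.14) and *GRE2* (2.34), which were below wild type in *rna14-1* and above it in *rna15-1*, and *AAD6* (-5.45), which was above it in *rna14-1* and below it in *rna15-1*. Both changes are measured against the same 5 wild-type arrays. In the direct comparison of the mutants, the first 3 genes kept their call when any array was left out, and so did *AAD6*. Whether the calls against wild type were kept as well was not tested. No group of 5 wild-type values among the 42 tested had a single array far from the rest, and the groups of 3 mutant arrays are too small for that test.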

How the results depend on the processing

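For 42 named genes, the extreme, opposite, marker and mutated ones, no called gene reversed its direction under any alternative, and of their 966 values 931 kept their side of the threshold. *AGA2*, not past the threshold with all arrays (0.16), changed sign without *rna15-1* replicate 3 (-0.20). The calls of *YBR284W* and *HPF1* were lost in 13 and 10 alternatives, that of *FIG1* in 6, and those of *PHO89*, *STE3* and *YAT1* in 1 each, while *STE2* gained a call in 3. Leaving out each array in turn gave 84 to 219 genes called higher and 106 to 293 called lower, and at the adjusted p alone 534 to 1322 higher and 582 to 1215 lower. The highest counts came without *rna15-1* replicate 3 (1322 higher at the adjusted p alone), and those without *rna14-1* replicate 3 (534 and 582), *rna15-1* replicate 1 (545 higher) and *rna15-1* replicate 2 (556 and 599) were more than 1.5 times below the values with all arrays. Fewer genes passed when only the mutant arrays were fitted (90 called lower, 544 higher at the adjusted p alone). A test against a 2-fold change gave 23 called higher and 30 called lower, and 24 and 35 without the other thresholds, since it asks for more than 2-fold beyond the error. Without the threshold on B, 168 were called higher and 261 lower, and an adjusted p under 0.05 gave 1348 higher. The cause of the other shifts was not tested. The chromosome III median of 0.24 was 0.27 after quantile normalisation and 0.22 to 0.27 when arrays were left out. The chromosome V median ranged from 0.30 to 0.68, with 0.68 without *rna15-1* replicate 3. Deviations of same-numbered arrays of the mutants from their strain means correlated at -0.14, 0.34 and 0.17. Differently numbered arrays were not compared, so these values do not decide whether the numbers pair the arrays. With the replicate number as a block, 562 genes were higher and 624 lower at the adjusted p alone, and 79 and 109 were called.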
